A study of Mus musculus with 12 samples.

Results

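The replication-dependent histone genes were examined in C2C12 myotubes after 24 h in medium with 4% STEM. Members were all genes annotated as protein coding whose symbol begins with Hist1h, Hist2h, Hist3h or Hist4h. This rule found 67 of the 55487 genes listed, and it did not use their measured values. The set itself was chosen with earlier results of these data known. They comprised 6 H1 genes, 18 H2A genes, 18 H2B genes, 12 H3 genes and 13 H4 genes. C2C12 is a mouse myoblast line whose cells fuse into myotubes when serum is lowered. Differentiation took 5 days with 2% horse serum, and the medium was then changed to one with 4% horse serum (6 libraries, numbered 1 to 6) or with 4% STEM (6 libraries, numbered 7 to 12). STEM is a cell-free solution of factors secreted by partially differentiated human embryonic stem cells. STEM took the place of the serum, so the addition of STEM and the removal of horse serum cannot be told apart. The libraries were made from total RNA after removal of ribosomal RNA, so transcripts without a poly(A) tail were counted. All libraries came from 1 cell line, and nothing in the labels says that wells were separate cultures, so the p-values measure the spread between these libraries, which may be technical.

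Histones are the proteins around which DNA is wound. H2A, H2B, H3 and H4 form the core of the nucleosome, and H1 binds the linker DNA between nucleosomes. The replication-dependent genes supply them while DNA is copied, and their messenger RNAs are mostly unspliced and end in a conserved stem-loop in place of a poly(A) tail. The stem-loop is bound by Slbp, the stem-loop binding protein, which acts in their processing, translation and decay. Fused myotube nuclei have left the cell cycle, while a C2C12 culture also keeps mononucleated cells that can still divide.

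The genes lay in groups. On mouse chromosome 13 (GRCm38), 23 members lay at chr13:21715763-22043676 and 31 at chr13:23531050-23934851. A further 10 members lay at chr3:96219865-96270132, with 2 on chromosome 11 and 1 on chromosome 6. The 13 H4 genes encode 1 identical protein, the 12 H3 genes encode 2, and the 18 H2A genes encode 9. In contrast, each of the 6 H1 genes encodes a protein of its own. For 54 of the 67 members, at least 1 stretch of 150 bases (the read length) was also present in another gene, and for 24 members this was the case for over 50% of such stretches, so the counting could split or drop reads among them. The exons of 24 members, among them all 18 H2A genes, also overlap those of another annotated gene, so reads there could be left out or split as well.

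The transcripts of every class held a stem-loop. The search asked for a perfect stem of 6 base pairs that opens with GG, with a loop of 4 bases that opens with TT. Such a match was found in 44 of the 52 members whose annotated 3′ UTR was long enough to hold it. It started 22 to 59 bases after the stop codon. No such match was found in the other 8, and the annotated UTR of 15 members was too short to search. The commonest form occurred in 26 members of H1, H2A, H2B and H3, while the H4 genes carried other pairs in the middle of the stem. Sequences from the transcript annotation are shown 5′ to 3′ for 1 to 4 genes of each class, with the stem-loop in capitals, to show what changed between classes and what did not:
Hist1h1c: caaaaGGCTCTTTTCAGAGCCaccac
Hist1h2ab: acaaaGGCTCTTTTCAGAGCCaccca
Hist2h2ac: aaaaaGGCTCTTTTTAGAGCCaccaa
Hist1h2bb: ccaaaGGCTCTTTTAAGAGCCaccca
Hist1h2bk: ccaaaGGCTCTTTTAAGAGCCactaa
Hist1h3b: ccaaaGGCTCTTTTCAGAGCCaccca
Hist1h3f: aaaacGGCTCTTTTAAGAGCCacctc
Hist1h4h: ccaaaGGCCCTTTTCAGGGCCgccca
Hist1h4d: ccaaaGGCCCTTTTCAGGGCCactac
Hist1h4j: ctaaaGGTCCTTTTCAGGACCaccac
Hist2h4: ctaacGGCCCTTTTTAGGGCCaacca

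Hist1h2bk, for example, shared its stem-loop letters, which differ from those of Hist1h1c within the loop, with 5 other members, and Hist1h4j shared its own with Hist1h4b. These differences in letters are descriptions, and nothing here measures binding to them.

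The promoters also differed by class. RefSeq promoter windows (GRCm38.p6, 250 bases before to 50 after the start) were matched for 62 of the 67 members and searched on both strands. CCAAT was present in 85.5% of the members' windows and in 37.7% of all 27025 windows. It occurred in every matched H1, H2A, H2B and H3 window and in 3 of 12 H4 windows (25%). TATAAA was present in 56.5% of the members' windows against 14.2% of all windows. TTTGCAT, a part of the octamer bound by Oct1 (Pou2f1), was present in 38.9% of H2A windows and 43.8% of H2B windows, in 8.33% of H4 windows, in no H1 or H3 window, and in 4.66% of all windows. Windows of H2A and H2B genes that lie head to head overlap, so the same site can be counted in both classes. The last 150 bases before the start are shown for 1 gene of each class, 5′ to 3′ on the gene's strand, with matches to these letters on either strand in capitals:
Hist1h1b (chr13:21780626-21780775, minus strand): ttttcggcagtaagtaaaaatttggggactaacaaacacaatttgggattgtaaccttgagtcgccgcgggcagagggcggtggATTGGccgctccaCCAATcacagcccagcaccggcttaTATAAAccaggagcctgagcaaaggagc
Hist1h2ab (chr13:23750938-23751087, plus strand): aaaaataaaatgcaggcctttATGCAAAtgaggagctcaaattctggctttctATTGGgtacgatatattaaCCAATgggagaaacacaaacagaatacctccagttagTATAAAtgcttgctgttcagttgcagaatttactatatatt
Hist2h2bb (chr3:96269550-96269699, plus strand): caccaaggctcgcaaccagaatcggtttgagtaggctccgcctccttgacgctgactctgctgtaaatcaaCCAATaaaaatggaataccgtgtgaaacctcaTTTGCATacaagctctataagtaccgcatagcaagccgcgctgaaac
Hist1h3h (chr13:21717478-21717627, plus strand): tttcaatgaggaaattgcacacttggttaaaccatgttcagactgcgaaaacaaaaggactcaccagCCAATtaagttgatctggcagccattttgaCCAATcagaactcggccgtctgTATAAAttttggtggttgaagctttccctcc
Hist1h4d (chr13:23581418-23581567, plus strand): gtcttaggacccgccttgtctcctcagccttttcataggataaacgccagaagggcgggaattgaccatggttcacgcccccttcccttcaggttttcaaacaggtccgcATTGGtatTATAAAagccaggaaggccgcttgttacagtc

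In these examples, Hist1h1b held CCAAT 66 and 53 bases and TATAAA 28 bases before the start. Hist2h2bb held TTTGCAT 47 bases before the start, between a CCAAT at 79 bases and the start itself. Hist1h4d held its only CCAAT match in this stretch on the other strand, 40 bases before the start and next to TATAAA.

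The summed level of the histone genes was lower in STEM-treated myotubes than in horse serum in every library and in every class. Levels are given as CPM, counts per 1000000 of the library's effective size after TMM scaling. All members together summed to 4134 ± 535 CPM in horse serum and 2537 ± 201 CPM in STEM (mean ± SD, n = 6 each), which is 1.63-fold lower. The horse serum libraries lay between 3661 and 5149 CPM and the STEM libraries between 2299 and 2792 CPM, so the groups did not overlap. Horse serum library 1 was the highest at 5149 CPM, and the other 5 horse serum libraries reached at most 4143 CPM. Library 6, which stood apart in other genes of this series, was at 4143 CPM. Without library 6 the horse serum mean was 4132 ± 598 CPM (n = 5), and the difference was again 1.63-fold. The log2 ratio of the sums was -0.70, and without horse serum libraries 1 and 6 together it was -0.61.

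**Figure D1:**
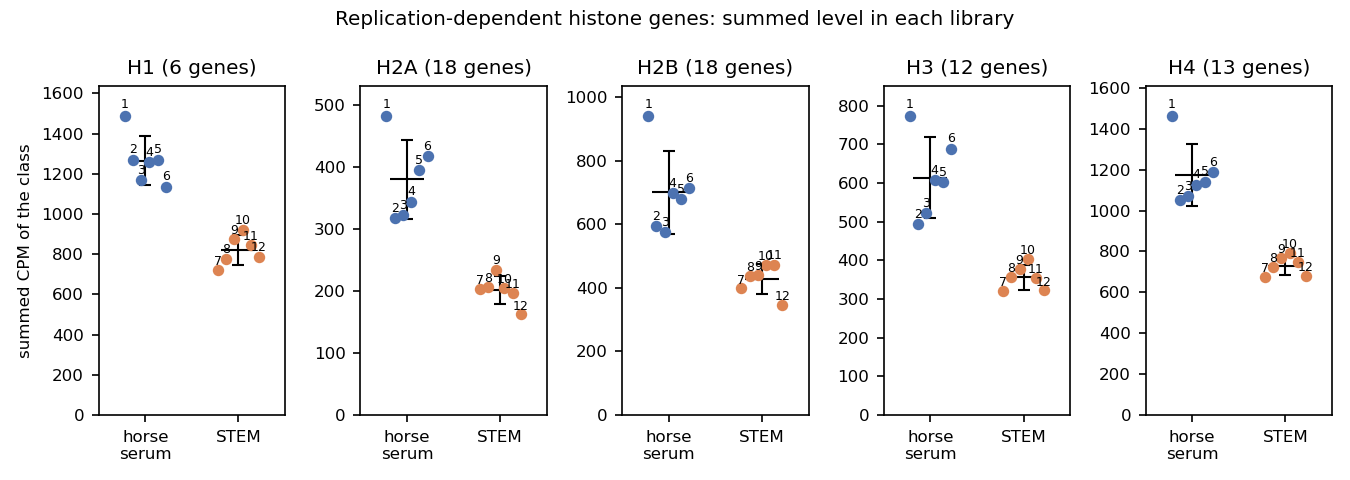
Summed CPM of each histone class in each library, on axes that start at 0. Each point is 1 library with its number above it, and the black marks give the mean and SD of the 6 libraries of a group. In each class all 6 STEM libraries lie below all 6 horse serum libraries, and horse serum library 1 is the highest.

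Gene by gene, 60 of the 67 members had enough counts to be tested. Of these 60, 51 fell in STEM (edgeR quasi-likelihood test, adjusted p of 0.05 or less), against 17.4% of all 14175 genes tested that fell, and 9 did not pass. No member rose, also at an unadjusted p of 0.05 and with DESeq2 and limma-voom, while 18.9% of all genes tested rose. Without horse serum library 6, 52 of the 60 fell and none rose, against 24.5% and 26.3% of all 14267 genes tested. The fold change was below 0 for 59 of the 60 members, with a median log2 fold change of -0.79, which corresponds to 1.73-fold lower. The median over all tested genes was 0.01, and 3.31% of them lay below the members' median. The groups did not overlap for 44 of the 60, every STEM library being lower, which was so for 8.52% of all genes tested. Every STEM library was higher for 0 of the 60 and for 8.68% of all genes. Without library 6 every STEM library was lower for 45 of the 60 (16.5% of all genes) and higher for 0 (16.8% of all genes). In bulk RNA, fewer cells that express a gene and less RNA in each cell cannot be told apart.

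**Figure D2:**
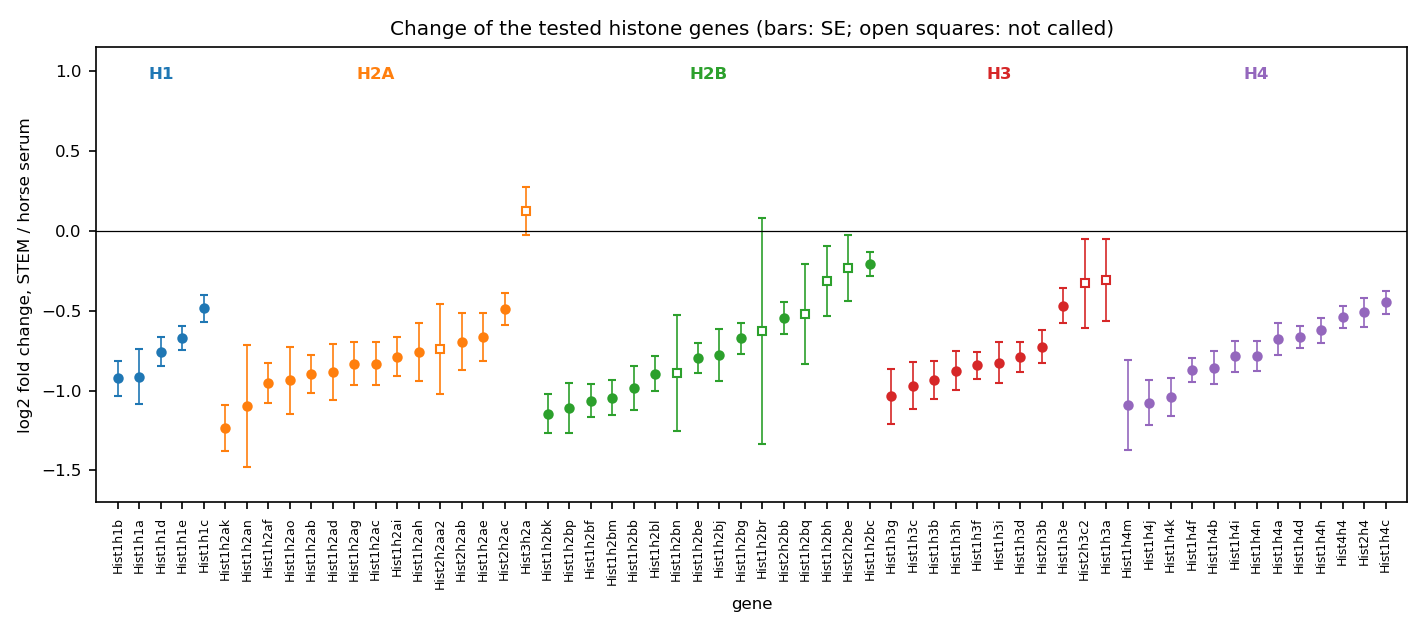
Log2 fold change (STEM over horse serum) of the 60 tested histone genes, ordered within each class. Bars are standard errors, filled circles are genes that fell and open squares are the 9 that did not pass, and only Hist3h2a lies above 0.

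All 5 tested H1 genes fell. These linker histone genes summed to 1265 ± 123 CPM in horse serum and 821 ± 72.5 CPM in STEM, 1.54-fold lower. Hist1h1c had the highest level of the class per kb of exon and the smallest fall. It ranged from 452 to 650 CPM in horse serum (median 578) and from 353 to 453 CPM in STEM (median 400), and its log2 fold change was -0.49 ± 0.08 (SE, adjusted p = 0.000366). Its groups touched only through library 6, the lowest horse serum library at 452 CPM, and without it they did not overlap (log2 fold change -0.54). Hist1h1b fell furthest. Its horse serum libraries ranged from 74.5 to 110.6 CPM (median 86.8) and its STEM libraries from 41.3 to 58.9 CPM (median 48.3), with no overlap, and the log2 fold change was -0.92 ± 0.11 (adjusted p = 2.49e-05). Hist1h1e, which shares exon sequence with the overlapping gene Hist1h2be over 19.5% of its stretches, fell from a median of 321 to 202 CPM (log2 fold change -0.67 ± 0.08, adjusted p = 1.15e-05). Hist1h1a was at 81.6 CPM in library 6 and at 37.8 to 50.1 CPM in the other horse serum libraries, against 22.2 to 31.6 CPM in STEM. Its log2 fold change was -0.91, and -0.72 without library 6. Hist1h1t, the testis H1 gene, had at most 4 counts in a library and was not tested.

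H2A genes summed to 380 ± 64.0 CPM in horse serum and 202 ± 23.2 CPM in STEM, 1.89-fold lower. Of the 15 tested, 13 fell, with a median log2 fold change of -0.83. Hist1h2ak, which shares no stretch of the read length with another gene, fell furthest of all members. Its horse serum libraries ranged from 84.0 to 133.8 CPM (median 101.0) and its STEM libraries from 31.0 to 57.6 CPM (median 43.6), a log2 fold change of -1.24 ± 0.14 (adjusted p = 3.21e-05). The 3 highest STEM values of this gene were those of libraries 7, 8 and 9. Hist1h2ab, whose stem-loop and promoter are printed above, ranged from 43.1 to 73.9 CPM in horse serum and from 24.8 to 34.5 CPM in STEM, and fell by 0.90 on the log2 scale. Hist1h2ai fell by 0.79 on the log2 scale, from a median of 28.3 to 16.4 CPM, again with no overlap. The smallest fall was that of Hist2h2ac on chromosome 3, from a median of 31.6 to 23.2 CPM (log2 fold change -0.49 ± 0.10, adjusted p = 0.00169).

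Of the other H2A genes, 8 also fell (Hist1h2ac, Hist1h2ad, Hist1h2ae, Hist1h2af, Hist1h2ag, Hist1h2ah, Hist1h2ao and Hist2h2ab), by between 0.66 for Hist1h2ae and 0.95 for Hist1h2af on the log2 scale. The calls of Hist1h2an and Hist2h2aa2 depended on the libraries used. Hist1h2an ranged from 33.2 to 57.2 CPM in horse serum, while its STEM libraries split into 31.0 to 33.0 CPM in libraries 7, 8 and 9 and 7.74 to 10.1 CPM in libraries 10, 11 and 12. It passed over all 12 libraries (log2 fold change -1.10 ± 0.38, adjusted p = 0.044) and did not pass without library 6 (adjusted p = 0.0606). Its call was also lost without any 1 of horse serum libraries 1 to 5 or STEM libraries 10 to 12, and the adjusted p over these 9 settings was 0.0518 to 0.0848. Hist2h2aa2 was at 2.32 to 7.69 CPM in horse serum and 1.59 to 3.12 CPM in STEM. It did not pass over all libraries (adjusted p = 0.0527) and passed without library 6 (adjusted p = 0.028), and every stretch of it is shared with other genes. Hist3h2a was the only tested member with a positive fold change, 0.12 ± 0.15, at 2.39 to 3.67 CPM in horse serum and 2.73 to 4.39 CPM in STEM (adjusted p = 0.552). It shares exons with Trim17. Hist1h2aa had 0 counts in every library, which allows up to 3 counts in each for counting error alone. Hist1h2ap and Hist2h2aa1, with at most 22 and 5 counts in a library, were not tested.

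H2B genes summed to 701 ± 130 CPM in horse serum and 428 ± 48.5 CPM in STEM, 1.64-fold lower. Of the 16 tested, 11 fell, and 12 fell without library 6. The genes with the highest level per kb that fell were Hist2h2bb, Hist1h2bb and Hist1h2bl. Hist1h2bb ranged from 77.2 to 135.2 CPM in horse serum (median 89.4) and from 35.5 to 57.0 CPM in STEM (median 48.3), and fell by 0.98 ± 0.14 on the log2 scale (adjusted p = 0.000136). Its highest value was that of horse serum library 1. Hist2h2bb fell by 0.55 on the log2 scale, from a median of 93.3 to 65.8 CPM, without overlap, although all of its stretches are shared with 2 overlapping genes. Hist1h2bl fell by 0.90 on the log2 scale, from a median of 36.4 to 20.9 CPM.

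Hist1h2bk and Hist1h2bc were the extremes among the H2B genes that fell. Hist1h2bk ranged from 34.5 to 56.7 CPM in horse serum (median 41.6) and from 16.4 to 23.4 CPM in STEM (median 19.1), a log2 fold change of -1.15 ± 0.12 (adjusted p = 9.49e-06). Hist1h2bc ranged from 80.9 to 114.4 CPM in horse serum and from 74.8 to 88.7 CPM in STEM, so the groups overlapped, and its log2 fold change was -0.21 ± 0.07 (adjusted p = 0.0363). Its call was lost without any 1 of horse serum libraries 1, 3, 4 and 5 or STEM libraries 7, 9, 10 and 12, with an adjusted p of 0.0531 to 0.077. Hist2h2be did not pass over all libraries (log2 fold change -0.23, adjusted p = 0.408) and passed without library 6 (log2 fold change -0.38, adjusted p = 0.0412), where that library was the lowest at 1.38 CPM. Hist1h2ba, the testis H2B gene, and Hist3h2ba had at most 5 counts in a library and were not tested.

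H3 genes summed to 614 ± 104 CPM in horse serum and 356 ± 31.7 CPM in STEM, 1.72-fold lower, and 9 of the 11 tested fell. Hist1h3f had the highest level of the class per kb of exon. It ranged from 147.7 to 218.5 CPM in horse serum (median 174) and from 87.8 to 110.0 CPM in STEM (median 102), with no overlap, and its log2 fold change was -0.84 ± 0.09 (adjusted p = 4.98e-06). Hist1h3g fell furthest, from a median of 53.8 to 26.8 CPM (log2 fold change -1.04 ± 0.17, adjusted p = 0.000542). Hist1h3i and Hist2h3b, which encode different H3 proteins, fell by 0.83 and 0.72 on the log2 scale. Hist1h3h, whose promoter is printed above, fell by 0.87 on the log2 scale. Hist1h3e fell least, from a median of 80.1 to 59.0 CPM (log2 fold change -0.47 ± 0.11, adjusted p = 0.00439), and its groups overlapped through STEM library 10 at 76.6 CPM. Hist1h3a (log2 fold change -0.31, adjusted p = 0.376) and Hist2h3c2 (-0.33, adjusted p = 0.384) did not pass, and Hist2h3c1, identical to other genes in every stretch, had 0 counts.

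All 13 H4 genes fell, 12 of them with no overlap between groups, although they encode 1 protein. Their sum was 1173 ± 150 CPM in horse serum and 731 ± 47.4 CPM in STEM, 1.61-fold lower. Hist1h4h had the highest level per kb of exon of all members. It ranged from 192.6 to 280.7 CPM in horse serum (median 213) and from 128.8 to 156.3 CPM in STEM (median 145), with a log2 fold change of -0.62 ± 0.08 (adjusted p = 2.87e-05). Hist1h4f had the lowest adjusted p of the members, 8.58e-07, at 80.3 to 118.1 CPM in horse serum and 49.8 to 56.3 CPM in STEM (log2 fold change -0.87 ± 0.07). Hist1h4d, which shares no stretch with another gene, fell from a median of 215 to 142 CPM (log2 fold change -0.66 ± 0.07, adjusted p = 6.61e-06). Hist1h4k fell by 1.04 on the log2 scale, and its value in horse serum library 1 (111.0 CPM) stood above the other 5 (66.1 to 75.8 CPM). The extremes were Hist1h4m, which fell by 1.09 on the log2 scale at no more than 30 counts in a library, and Hist1h4c, which fell by 0.45 on the log2 scale from a median of 117 to 85.9 CPM. Differences in fold change between the classes were not tested.

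The make-up of the pool by class moved little on average. H1 genes held 30.8 ± 2.33% of the members' summed CPM in horse serum and 32.3 ± 1.22% in STEM, and H4 genes held 28.4 ± 0.51% and 28.8 ± 0.44%. H2B genes held 16.9 ± 0.94% and 16.9 ± 1.05%, and H3 genes 14.8 ± 1.11% and 14.0 ± 0.31%. H2A genes held 9.17 ± 0.64% and 7.95 ± 0.72%. The H2A share was 8.54 to 10.1% in horse serum, 8.24 to 8.76% in STEM libraries 7 to 9 and 7.07 to 7.55% in STEM libraries 10 to 12. These shares are given as a description.

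The fall was also seen among members with less shared sequence. Among the 43 members with at most 50% of their stretches shared, 34 of 39 tested fell, with a median log2 fold change of -0.79. Among the 13 members with no shared stretch, 9 of 10 tested fell, with a median of -0.71, and all 10 fell without library 6.

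A few members were uneven within groups. The spread within groups of log2 CPM had a median SD of 0.23 over the 60 tested members and was widest for Hist1h2br (1.24), Hist1h2an (0.72) and Hist1h2bn (0.65). Hist1h2br was at 36.1 and 24.4 CPM in horse serum libraries 1 and 4 and at 5.08 to 6.25 CPM in the other 4, and in STEM it was at 14.9 to 15.7 CPM in libraries 8, 10 and 11 and at 2.02 to 3.09 CPM in the other 3. Within each group, Hist1h2bn was highest in the same libraries: 85.9 and 64.4 CPM in libraries 1 and 4, and 31.5 to 36.3 CPM in libraries 8, 10 and 11. Hist1h3a was at 16.6 to 17.7 CPM in STEM libraries 8, 10 and 12 and at 7.17 to 8.57 CPM in the other 3. Hist1h2bh was at 13.3 and 10.8 CPM in STEM libraries 7 and 12 and at 22.3 to 26.8 CPM in the other 4. None of Hist1h2br (adjusted p = 0.522), Hist1h2bn (0.0773), Hist1h3a (0.376) and Hist1h2bh (0.289) passed. The share of stretches present in other genes was 84.2% for Hist1h2br, 72.5% for Hist1h2an, 34.9% for Hist1h2bn, 23.4% for Hist1h3a and 2.35% for Hist1h2bh, and its part in the unevenness was not tested.

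**Figure D3:**
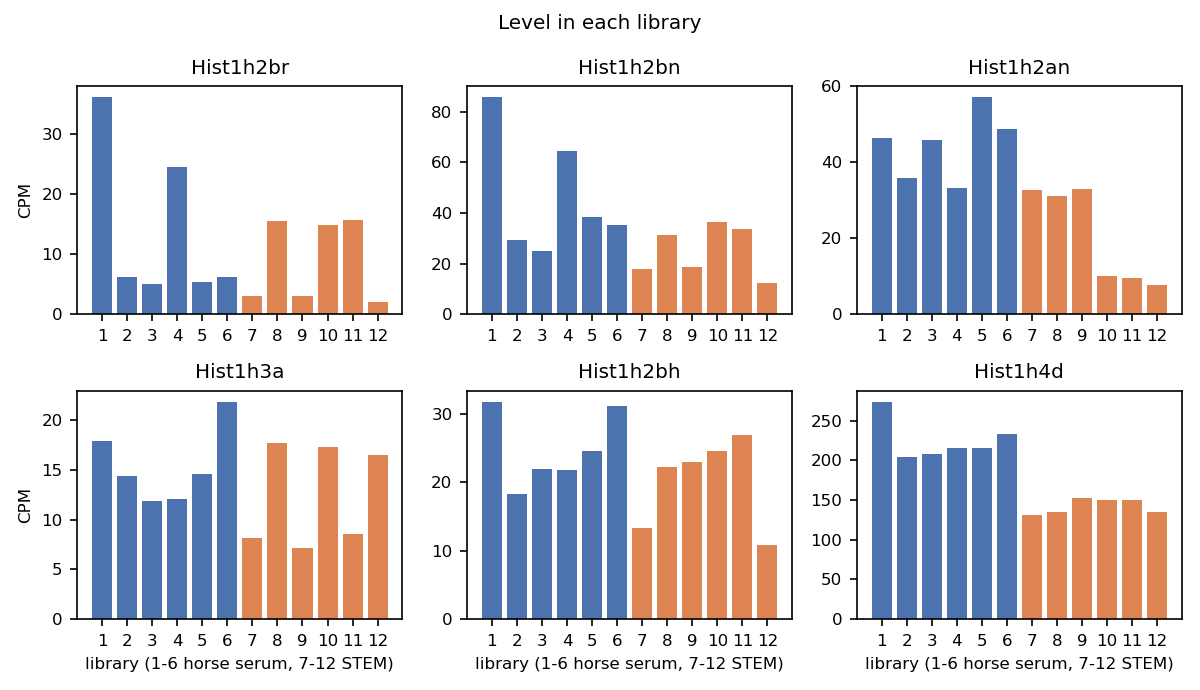
CPM of 6 histone genes in each library (1 to 6 horse serum in blue, 7 to 12 STEM in orange), 1 bar per library and each panel on its own axis from 0. The first 5 genes vary widely between libraries of 1 group, while Hist1h4d stays between 131 and 152 CPM in all STEM libraries.

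Members with a long annotated 3′ UTR changed less. The 39 tested members with an annotated 3′ UTR under 300 bases had a median log2 fold change of -0.88, and 36 of them fell. The 21 with 300 bases or more had a median of -0.54, and 15 of them fell. Of the 6 that did not pass, Hist1h2bh and Hist1h2br were uneven within groups. The others, Hist1h2bq, Hist2h2be, Hist2h3c2 and Hist3h2a, had at most 81 counts in a library. UTR lengths were used as annotated, also where they were too short to hold a stem-loop. Without library 6 these medians were -0.84 and -0.64. Across the 60 tested members, Spearman's rho between UTR length and log2 fold change was 0.54 (0.48 without library 6), rho with exon length was 0.49 and rho with GC content was -0.46. These correlations are across genes measured in the same libraries, which are not independent replicates, and UTR length, exon length and GC content were not separated. By position, the median was -0.89 for the 22 tested members of the first chromosome 13 group, -0.79 for the 28 of the second and -0.53 for the 8 on chromosome 3. The long-UTR gene Hist4h4 on chromosome 6, with 2515 annotated bases after its stop codon, fell by 0.54 on the log2 scale from a median of 120.2 to 80.3 CPM.

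**Figure D4:**
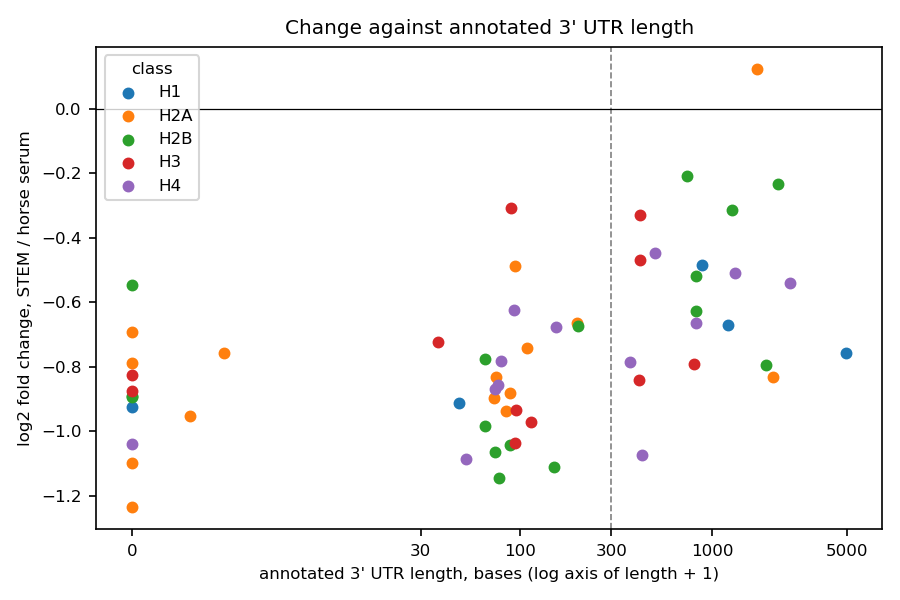
Log2 fold change of the 60 tested histone genes against the annotated 3′ UTR length on a log axis, coloured by class. The dashed line marks 300 bases; the 21 genes to its right have a median of -0.54 and the 39 to its left a median of -0.88.

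In 12 places an H2A and an H2B gene lie head to head, 175 to 305 bases apart. Both genes were tested in 10 of these pairs, and both fell in 7. In the pair Hist1h2ah and Hist1h2bk, 301 bases apart, the log2 fold changes were -0.76 and -1.15. In the pair Hist1h2ac and Hist1h2bc, 250 bases apart, they were -0.83 and -0.21, and in Hist1h2ak and Hist1h2bn, 295 bases apart, they were -1.24 and -0.89, where Hist1h2bn did not pass.

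Among 24 genes of histone mRNA 3′ processing and turnover, 4 fell and 7 rose, with a median log2 fold change of 0.04. Without library 6, 5 fell and 9 rose, with a median of 0.08. For this and the following lists, the share of all tested genes called in either direction was 36.4% over all libraries. Without library 6 that share was 50.8%. Slbp fell from a median of 27.9 to 23.7 CPM, with overlap (log2 fold change -0.27 ± 0.08, adjusted p = 0.0137). Zfp473, a zinc finger protein of the U7 particle that cuts histone pre-mRNA, fell by 0.85 on the log2 scale at 0.79 to 1.87 CPM (12 to 31 counts in a library). Eri1, an exonuclease that trims the stem-loop end, fell by 0.29 on the log2 scale. Ncbp1, the large subunit of the nuclear cap-binding complex, rose by 0.22 ± 0.04 on the log2 scale, from a median of 90.6 to 104 CPM with no overlap (adjusted p = 0.000342). The largest rises of the list were those of Upf1 (0.41), Ncbp2 (0.40) and Srrt (0.40) on the log2 scale. For these genes the groups overlapped over all libraries and did not without library 6. Casp8ap2 (FLASH), a further factor of the cleavage step, was at a median of 33.4 CPM in horse serum and 34.2 CPM in STEM and did not pass (log2 fold change 0.03 ± 0.06, adjusted p = 0.747).

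Of 15 genes that act in histone gene transcription or in entry into S phase, 6 fell and 1 rose. Npat, the coactivator at histone loci, was at 33.8 to 40.5 CPM in horse serum and 29.0 to 35.2 CPM in STEM and did not pass (log2 fold change -0.16 ± 0.07, adjusted p = 0.0634). The cyclin E genes Ccne2 and Ccne1, which activate Cdk2, fell by 0.83 and 0.82 on the log2 scale. E2f1, a transcription factor of the S phase genes, fell by 0.91 on the log2 scale, from a median of 8.37 to 4.61 CPM with no overlap.

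Among 21 histone chaperone genes, 9 fell and 1 rose. Asf1b, which hands H3 and H4 to the assembly factors at the replication fork, fell from a median of 36.7 to 19.8 CPM with no overlap (adjusted p = 4.91e-05). Ssrp1, a subunit of FACT, and Rbbp4, a subunit of the assembly factor CAF-1, fell by 0.37 and 0.23 on the log2 scale. The list median was -0.10. Without library 6, 10 fell and 2 rose, and the median was -0.03.

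The replication-independent variants were mixed. Of the 12 tested, 7 fell and 1 rose, with a median of -0.33. The pair of genes that encode H3.3 moved in opposite directions: H3f3a fell by 0.17 ± 0.05 on the log2 scale, from a median of 490 to 433 CPM (adjusted p = 0.0168), and H3f3b rose by 0.31 ± 0.08, from 349 to 448 CPM (adjusted p = 0.00518). Both pairs of groups overlapped through library 6, and without it neither did. H2afx, which is both a stem-loop and a polyadenylated transcript, fell by 0.72 on the log2 scale, H2afv by 0.69 and H2afy, a macroH2A gene, by 0.45. H2afz fell by 0.28 ± 0.07 on the log2 scale (adjusted p = 0.00692). Cenpa, the centromeric H3, did not pass (log2 fold change -0.26, adjusted p = 0.209) and was at 59.4 CPM in library 6 against 28.8 to 38.4 CPM in the other horse serum libraries.

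Genes of DNA replication mostly fell too. Of 38, 28 fell and 0 rose over all libraries with edgeR, and 0 rose at an unadjusted p of 0.05 or with DESeq2 and limma-voom. Without library 6, 28 fell and 1, the thymidylate synthase gene Tyms, rose. The list had a median of -0.43 (-0.33 without library 6). Its summed level was highest in horse serum library 6 (1192 CPM), while that of the histone genes was highest in library 1. Lig1, the replicative DNA ligase, fell by 1.49 ± 0.15 on the log2 scale, from a median of 14.6 to 6.10 CPM (adjusted p = 3.25e-06). Pola1, the catalytic subunit of DNA polymerase alpha, fell by 0.86 and Clspn, a replication checkpoint adaptor, by 1.05 on the log2 scale. Cycling cell markers did so too, 3 of 4 falling. Mki67 was at 168.6 to 321.5 CPM in horse serum and 129.2 to 162.2 CPM in STEM (log2 fold change -0.62 ± 0.14, adjusted p = 0.00506), and Top2a and Cdk1 fell by 0.65 and 0.62. The summed level of the 4 markers was 547 to 909 CPM in horse serum and 413 to 504 CPM in STEM, highest in libraries 6 and 1. Their part in the fall of the histone genes was not tested.

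**Figure D5:**
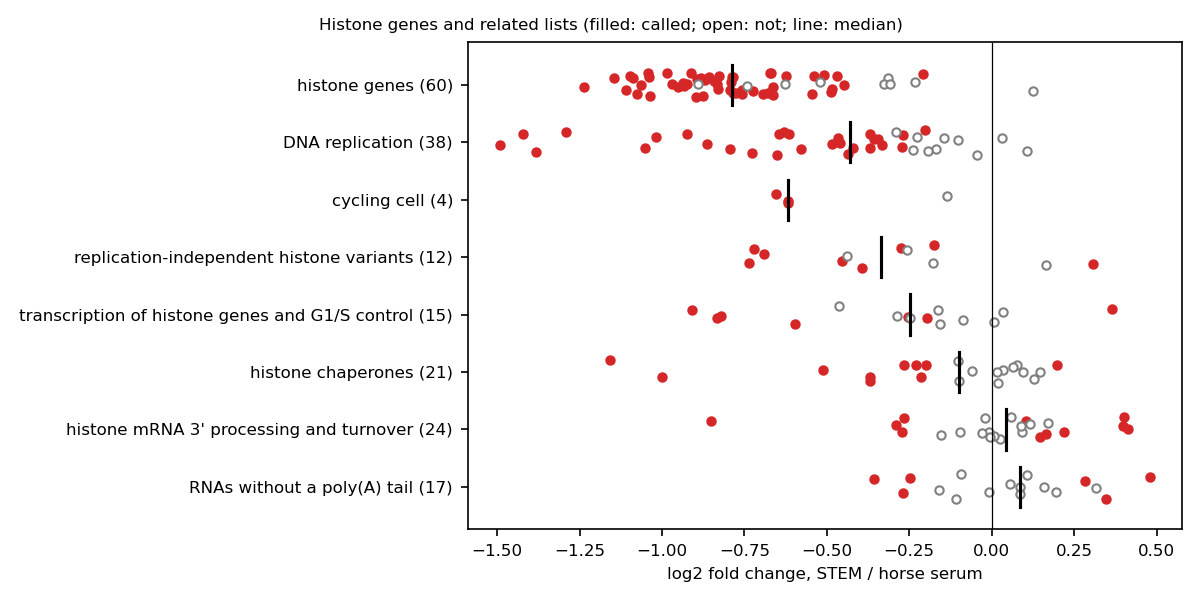
Log2 fold change of the tested histone genes and of 7 related lists, 1 point per gene, with the number tested in brackets. Filled points were called, open points were not, and the line is the list's median, from -0.79 for the histone genes to 0.09 for other RNAs without a poly(A) tail.

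A list of other RNAs that lack a poly(A) tail was set beside the histone genes. Of the 17 tested, 3 fell and 3 rose, with a median log2 fold change of 0.09 (4 fell, 3 rose and a median of 0.05 without library 6). Neat1 and Scarna13 fell by 0.36 and 0.25 on the log2 scale, and Rny3 rose by 0.28. The value of Neat1 is that of the whole gene, whose shorter isoform is polyadenylated. The list summed to 38030 to 48845 CPM in horse serum and 41366 to 46713 CPM in STEM, and these ranges overlapped.

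Markers of the cells present were as follows. Of 10 myotube markers all were tested, and 2 fell (6 without library 6). Myh8, the perinatal myosin heavy chain, was at 79.8 CPM in library 6 and at 598 to 775 CPM in the other horse serum libraries, against 181 to 294 CPM in STEM (log2 fold change -1.25, adjusted p = 0.0357; -1.48 without library 6). Mybph fell by 0.32 on the log2 scale. The 10 markers summed to 10436 CPM in library 6, to 17045 to 19501 CPM in the other 5 and to 14868 to 20948 CPM in STEM. Of 5 markers of undifferentiated myoblasts or reserve cells, Cdh15 rose by 0.46 and Myf5 fell by 0.42 on the log2 scale, and the other 3 did not pass. The 5 summed to 717 CPM in library 6, to 492 to 580 CPM in the other 5 and to 676 to 794 CPM in STEM, so that without library 6 every STEM library lay higher. Such a sum is weighted to the genes with the most counts. The list's median log2 fold change was 0.03, and 0.02 without library 6. Without library 6, Notch3 also rose (log2 fold change 0.58, adjusted p = 0.0253). None of 6 pluripotent cell markers could be tested, with at most 11 counts in a library, and of 5 macrophage markers only Cd68 could be tested and did not pass (log2 fold change 0.12, and -0.01 without library 6). Csf1r, with at most 30 counts in a library, did not pass the expression filter over all 12 libraries. It passed that filter without library 6 and was then called higher (log2 fold change 1.45, adjusted p = 0.00234). A gene so close to the filter may be kept because of the libraries in which it is high, so no conclusion is drawn from this call. The part of these cell types in the fall of the histone genes was not tested.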

How the data were processed

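RNA from 6 horse serum and 6 STEM libraries of C2C12 myotubes was sequenced as stranded, ribosomal RNA-depleted total RNA (150-base paired reads). The authors deposited raw counts per gene, and the submitters' processing notes name STAR 2.7.3a, featureCounts 1.6.3, DESeq2 1.26.0 and GRCm38. The strand setting, the treatment of reads with several matches and the annotation release are not given in the sources used here. Groups came from the sample titles.

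Counts totalled 13285472 to 24536264 per library, of which 34131 to 80834 fell on the histone genes (0.229% to 0.498%). IDs were matched to GENCODE (GRCm38) for symbols, exons, UTRs and coordinates, and 55141 of the 55487 IDs matched. Counts were filtered by expression (filterByExpr), scaled by TMM and tested with edgeR 4.0.16 (robust quasi-likelihood test, group as the only term) in R 4.3.3, with Benjamini-Hochberg adjustment over all tested genes and a threshold of 0.05. Summed levels used all members, tested or not, and received no test. Alternatives were DESeq2 1.42.0, limma-voom (limma 3.58.1), other scalings and filters, thinning, a correction by offsets for GC and length, and omission of each library in turn. The scripts were tested on simulated counts. Leaving out horse serum libraries 1 and 6 together, repeating the alternatives without library 6 and the subset of members by shared sequence were chosen after seeing the data.

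Members and gene lists were chosen with earlier results of these data known. Members named with values were, in each class, the 4 with the highest CPM per kb of exon and the largest fall among those called. The rule also asked for the largest rise, and since none rose the smallest fall was given. Members whose call differed without library 6 and those used to show sequences were named too, but Hist1h3b, Hist1h4j and Hist2h4 were shown by sequence without values. In each list the genes named were the 3 called genes with the lowest p, plus Slbp, Npat, Casp8ap2, H2afz, H3f3a, H3f3b, Cenpa and Mki67. Hist1h2br, Hist1h2bh, Hist1h2bq, Hist1h3a, Hist2h3c2, Hist3h2a, Hist4h4, the remaining called H2A genes, Tyms, Notch3, Csf1r, Cd68, members of the paired examples and the untested members were named after their values were seen. So were E2f2, E2f3, E2f7, E2f8, Upf1, Ncbp2 and Srrt. The genes most correlated with the members are not reported, because the libraries fall into 2 groups.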

Additional observations from a re-analysis of the deposited data

Results flagged for a closer look

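Among 132 tests of 66 quantities in a group of 6 libraries, 17 had a highest or lowest library far from the other 5 by Dixon's criterion. Chance alone gives about 1 in 20 for independent quantities. These were not independent, since sums were tested beside their own genes, and some genes were included because their call changed without library 6. The 17 can therefore not be set against that rate. Of the 17, 6 were a high value in horse serum library 1. Its summed CPM was 5149 over all members (others 3661 to 4143), 941.8 over H2B (others 577.8 to 713.4) and 1463 over H4 (others 1051 to 1188). In the same library Hist1h2bb was at 135.2 CPM (others 77.2 to 95.5), Hist1h4h at 280.7 CPM (others 192.6 to 219.6) and Hist1h4k at 111.0 CPM (others 66.1 to 75.8).

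Horse serum library 6 stood apart for 5 quantities. Hist1h1a was high at 81.6 CPM (others 37.8 to 50.1) and Cenpa at 59.4 CPM (others 28.8 to 38.4). Hist2h2be was low at 1.38 CPM (others 2.84 to 3.66), Mybph at 553.8 CPM (others 806 to 957) and Myh8 at 79.8 CPM (others 598 to 775).

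The other 6 were spread over libraries. Hist2h2aa2 was at 7.69 CPM in horse serum library 3 (others 2.32 to 3.91). Hist2h2ac was at 25.8 CPM in STEM library 9 (others 22.4 to 23.6). In STEM library 10 Hist1h3i was at 41.0 CPM (others 27.9 to 32.3) and Hist1h3e at 76.6 CPM (others 53.0 to 60.7). In STEM library 11 Myf5 was at 11.4 CPM (others 13.5 to 14.4) and H3f3a at 402.6 CPM (others 433 to 440).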

How the results depend on the processing

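No paired analysis was possible because the groups share no library numbers. The number of histone genes that fell was 51 over all libraries, 49 to 52 when 1 library was left out, 50 without horse serum libraries 1 and 6, and 49 (offsets for GC and length) to 53 (DESeq2) under the other settings, and 0 rose in each. Without library 6 the number was 52, and 50 to 54 under its alternatives. The members' median log2 fold change was -0.84 to -0.70 with 1 library left out and -0.67 without libraries 1 and 6, and the log2 ratio of their sums was -0.74 to -0.63 and -0.61. Hist1h2an, Hist1h2bc and Hist1h4m lost their call in 12, 9 and 1 of 22 alternatives, and Hist1h2ap, Hist2h2aa2 and Hist2h2be gained one in 9, 7 and 1. No called member changed sign. Without horse serum libraries 1 and 6, 1 member that was not called did, and 58 of the 60 tested were below 0. Other scalings moved the median of all genes by at most 0.02 on the log2 scale. Among the lists, genes called in histone mRNA processing went from 11 to 6 with no filter on low counts. For RNAs without a poly(A) tail the number went from 6 to 3 with limma-voom and was 3 to 7 with 1 library left out. For myotube markers it went from 2 to 0 with no filter and with limma-voom, to 6 without libraries 1 and 6, and was 0 to 6 with 1 library left out. For macrophage markers it went from 0 to 1 with no filter, with DESeq2 and without libraries 1 and 6, and was 0 to 1 with 1 library left out. Casp8ap2, at a log2 fold change of 0.03, ranged from -0.0151 (without STEM library 7) to 0.0541 with 1 library left out and never passed. The cause of these changes was not tested. Low counts limit Hist1h2bq (at most 22 counts), Hist1h4m (30) and the 7 members not tested.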
